A study of Mus musculus with 45 samples.

Results

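Mice that lack FADD, caspase-8 (CASP8) and MLKL together were compared with mice that lack FADD alone (FADD IEC-KO). The former have the title FADD IEC-KO CASP8 IEC-KO Mlkl -/- and are called triple mutants here. Each group had 5 mice with 1 ileum array each, chosen by the genotype in the sample title, which gives 10 of the 45 arrays of the study. IEC-KO stands for deletion in intestinal epithelial cells, so that Fadd, and in the triple mutants also Casp8, was left in the other cells of the ileum. Mlkl -/- stands for loss in every cell. The deleting transgene is not named in the sample labels. The comparison therefore changes the state of both Casp8 and Mlkl on a shared background of epithelial FADD loss. The genotype field of the triple mutants names only CASP8 IEC-KO Mlkl -/-; the titles were followed, and Fadd was measured as a check.

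Further groups of 5 mice served as references: FADD IEC-KO Mlkl -/-, CASP8 IEC-KO, CASP8 IEC-KO Mlkl -/-, and the floxed controls Fadd fl/fl and Casp8 fl/fl, which carry the alleles undeleted. All were specific-pathogen-free mice on a chow diet, 11 weeks old by their description and 10 to 12 weeks by the design text; another label field gives age ranges that run beyond this, and the sex is not given. The titles carry numbers of unstated meaning. They run from 200 to 207 in the triple mutants and from 41 to 45 in FADD IEC-KO Mlkl -/-. Of the FADD IEC-KO mice only replicate 5 has a number of 200 or over, so that this number series follows the genotype closely.

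FADD is the adaptor that brings caspase-8 to death receptors. Caspase-8 can start apoptosis, and with FADD it also cleaves and restrains RIPK1 and RIPK3; when this brake is lost, RIPK3 phosphorylates MLKL, which breaks the plasma membrane, a death called necroptosis. In the small intestine, loss of this brake in the epithelium is known to cost Paneth cells, the granular cells at the crypt base that secrete antimicrobial peptides, and to bring about ileitis. Removing caspase-8 beside FADD and MLKL takes away both the caspase and the executioner of necroptosis from the same epithelium.

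Values are log2 intensities. A gene was called when its adjusted p in limma (Benjamini-Hochberg over 19494 genes, 1 mean per group fitted over all 45 arrays) was under 0.05, and errors are standard errors of that fit. Between triple mutants and FADD IEC-KO mice 1267 genes were called, 6.5% of those tested: 736 were higher in the triple mutants (3.78%) and 531 were lower (2.72%). A change of 2-fold or more was reached by 129 of them, of which 108 were higher and 21 lower. The 5 triple mutants did not overlap the 5 FADD IEC-KO mice in 781 of the called genes; over all genes the groups did not overlap in 1283, or 6.58%, with 3.51% higher and 3.07% lower in the triple mutants. Arrays of the triple mutants correlated with each other across genes at a median r of 0.990, those of FADD IEC-KO at 0.987, and arrays of different groups at 0.982. Of the called genes 58.1% were higher; after quantile normalization 44.7% were, and after centring each array 45.8%, so that the balance of rises and falls rests on the scaling. With the title number series as a covariate it was 47.8%.

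**Figure D1:**
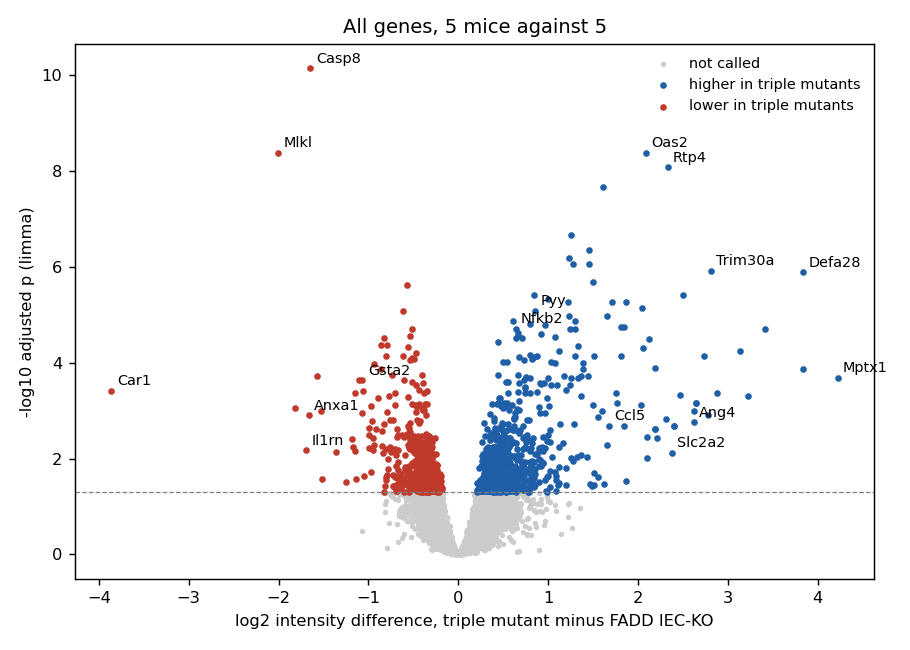
Change of each of 19494 genes between triple mutants and FADD IEC-KO mice (x axis, log2 difference, triple mutant minus FADD IEC-KO) against -log10 of the adjusted p from limma (y axis); the dashed line is an adjusted p of 0.05, and 16 genes are labelled. The defensin and pentraxin genes lie farthest to the right, Car1 and Mlkl are farthest to the left among the labelled genes, and Casp8 and Oas2 have small p-values.

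The deleted genes came first. Fadd, in replicates 1 to 5, was 6.10, 5.34, 6.52, 6.27 and 6.02 in the triple mutants and 7.32, 5.96, 6.31, 6.45 and 6.21 in FADD IEC-KO. Replicate 1 of FADD IEC-KO lay within the range of the floxed mice, 7.27 to 7.61, and the other 9 mice lay below it. Fadd did not pass the test between the groups (-0.40 ± 0.17, adjusted p = 0.167; -0.18 without that mouse, adjusted p = 0.577). Against the mean of both floxed groups Fadd was lower in the triple mutants (-1.43, limma adjusted p = 2.02e-08). Without replicate 1 of FADD IEC-KO all 17 alpha-defensins and 31 of the 35 interferon-induced genes described below were called higher. Of the 20 other Paneth cell products 8 were called higher without it, against 10 with it. Some further values without it are given below, but not every count or call that changed.

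Casp8 was 9.60, 9.46, 9.52, 9.49 and 9.68 in the triple mutants and 11.41, 11.12, 11.15, 11.00 and 11.31 in FADD IEC-KO. The groups stood fully apart, and Casp8 fell by 1.65 ± 0.14 (limma adjusted p = 7.24e-11). Mlkl was 7.18, 6.94, 7.31, 6.94 and 7.32 in the triple mutants against 9.53, 8.97, 9.36, 8.51 and 9.35 in FADD IEC-KO, again with no overlap, and Mlkl fell by 2.004 ± 0.20 (adjusted p = 4.2e-09). The Mlkl level of the triple mutants also lay below the Mlkl -/- mice of the other groups, which had 7.85 to 8.39 in FADD IEC-KO Mlkl -/- and 8.18 to 8.66 in CASP8 IEC-KO Mlkl -/-. Triple mutants against FADD IEC-KO Mlkl -/- differed by -0.91 in Mlkl (adjusted p = 0.00267), although both are labelled as lacking it. Where the array's probes lie relative to the deleted part of each gene was not tested.

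Ripk3, the kinase upstream of MLKL, was 8.43, 8.34, 8.39, 8.37 and 8.68 in the triple mutants and 8.83, 8.37, 9.01, 8.29 and 9.25 in FADD IEC-KO. The groups overlapped, and Ripk3 did not pass the test (-0.30 ± 0.16, adjusted p = 0.287). Zbp1, a nucleic acid sensor that activates RIPK3 and is itself interferon-induced, was 8.22, 7.88, 8.30, 7.76 and 8.05 against 7.94, 6.69, 7.45, 5.83 and 6.91. Zbp1 rose by 1.08 ± 0.29 (adjusted p = 0.0189), with overlap through FADD IEC-KO replicate 1, and it was no longer called without FADD IEC-KO replicate 2 or 4 or triple mutant replicate 3 (adjusted p up to 0.0759).

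**Figure D2:**
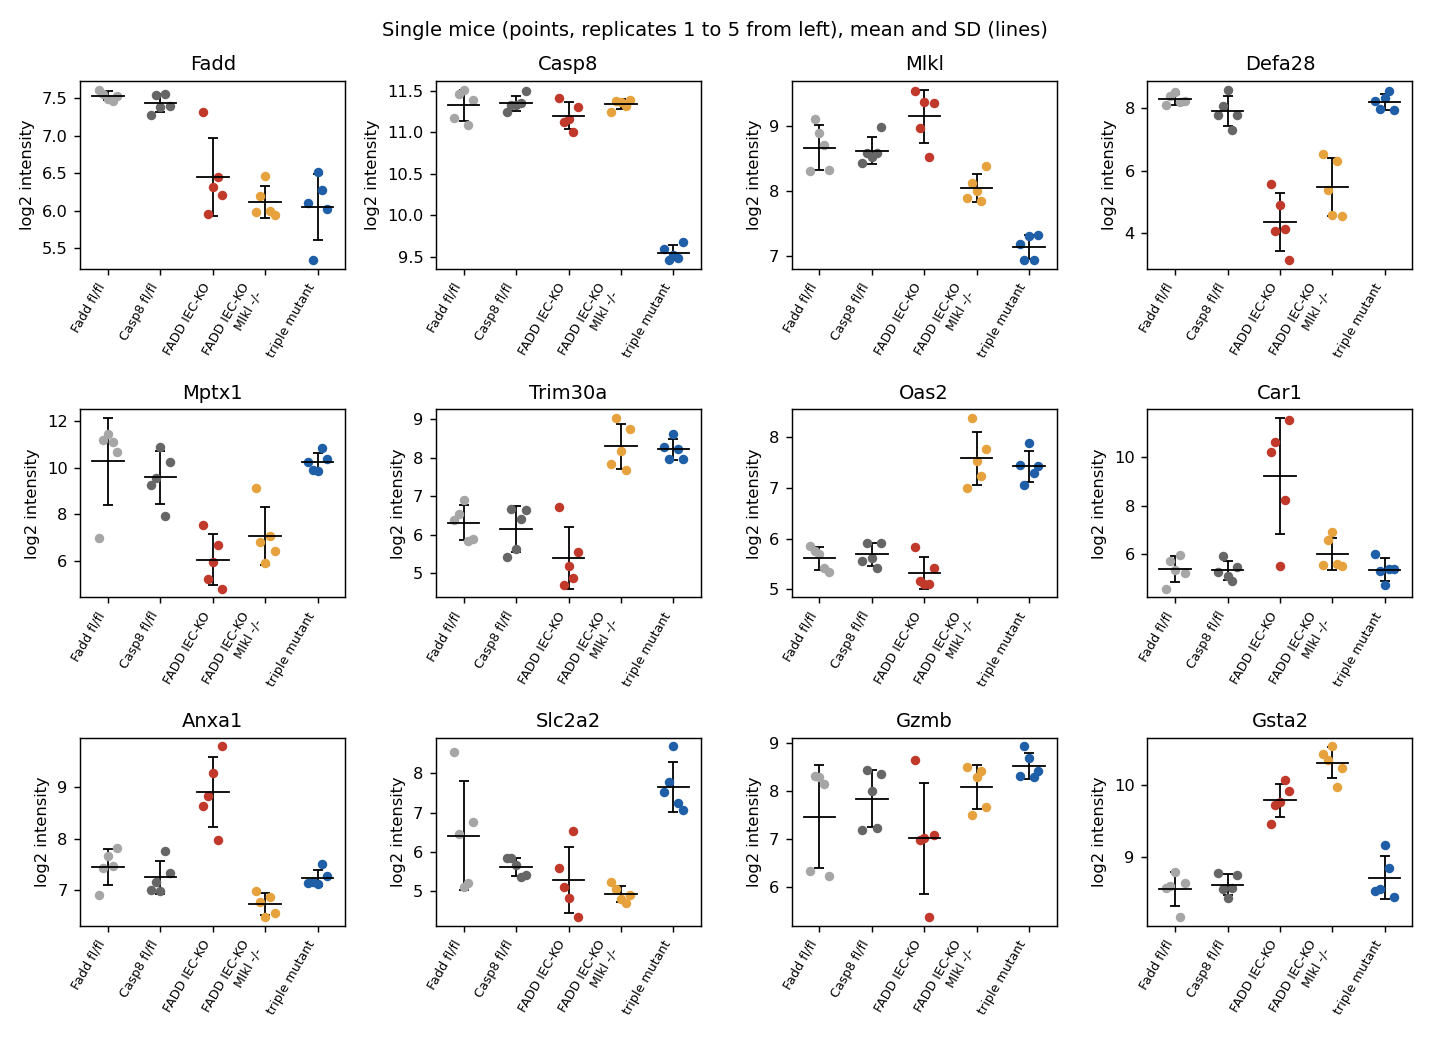
Log2 intensity (y axis) of 12 genes in every mouse of Casp8 fl/fl, Fadd fl/fl, FADD IEC-KO, FADD IEC-KO Mlkl -/- and the triple mutants (points are single mice; marks with bars are the mean ± SD, n = 5). Trim30a and Oas2 are high in both Mlkl -/- groups, while the triple mutants alone stand near the floxed mice for Defa28 and Mptx1.

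The largest rises were in genes of Paneth cells. All 17 alpha-defensins of the list were higher in the triple mutants, with a median log2 difference of 2.40; the median over all genes was 0.0067. Alpha-defensins are the main antimicrobial peptides of Paneth cell granules. The 17 entries hold 15 distinct sets of values, since Defa3 and Defa17 have equal values, as have Defa20 and Defa32, and cross-hybridisation between other members cannot be told apart from their own change. In the whole ileum fewer Paneth cells and less RNA per cell cannot be told apart.

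Defa28 was 8.24, 7.96, 8.34, 8.54 and 7.95 in the triple mutants and 5.57, 4.08, 4.90, 4.14 and 3.15 in FADD IEC-KO. No mouse of either group reached the other, and the difference of 3.84 ± 0.48 is 14.3-fold (limma adjusted p = 1.3e-06). Mptx1, a mucosal pentraxin that Paneth cells secrete in mice, was 10.27, 9.92, 9.84, 10.84 and 10.37 against 7.52, 5.22, 5.94, 6.65 and 4.79. Its rise of 4.22 ± 0.73, or 18.6-fold, was the largest of the named genes (adjusted p = 0.000204). The related pentraxin gene Mptx2 was 10.73, 10.39, 10.29, 10.83 and 10.52 against 8.04, 5.66, 7.17, 6.97 and 5.77, a rise of 3.83 ± 0.65 (adjusted p = 0.000134). In both pentraxin genes the FADD IEC-KO mice were spread over more than the triple mutants were, and replicate 1 was the highest of them.

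The other Paneth cell products moved less evenly: of 20 genes 10 were higher and 1 lower, with a median of 0.48. Ang4, an antimicrobial ribonuclease, was 10.00, 10.24, 9.94, 11.03 and 10.07 in the triple mutants and 8.001, 6.34, 7.77, 6.77 and 9.31 in FADD IEC-KO, a rise of 2.62 ± 0.54 (adjusted p = 0.00173). Clps, the colipase of fat digestion, was 8.66, 8.68, 8.49, 9.63 and 8.60 against 6.98, 6.72, 6.60, 7.24 and 6.37, a rise of 2.03 ± 0.39 (adjusted p = 0.00078). The groups were apart in both genes. The lysozyme genes Lyz1 (1.75 ± 0.32, adjusted p = 0.000424) and Lyz2 (1.56 ± 0.31, adjusted p = 0.00137) rose as well; the Lyz1 product is a Paneth cell lysozyme and that of Lyz2 also a macrophage one. Itln1, an intelectin that binds microbial sugars, rose by 1.28 ± 0.32 (adjusted p = 0.0114).

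Several further Paneth cell genes did not pass. Mmp7, the protease that activates mouse alpha-defensins, differed by 0.24 (adjusted p = 0.654), Pla2g2a, a secreted phospholipase, by -0.13 (adjusted p = 0.908) and Sox9, a transcription factor of crypt base cells, by 0.06. The member that fell was Reg4, a secreted lectin-like protein, at 8.92, 8.51, 9.29, 9.40 and 8.84 in the triple mutants against 9.55, 11.32, 9.84, 10.81 and 10.23 in FADD IEC-KO. All triple mutants lay below all FADD IEC-KO mice in Reg4 (-1.36 ± 0.33, adjusted p = 0.00731).

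The second group was the genes that type I interferon induces. They are switched on when interferon binds its receptors, and many carry a DNA element of repeated GAAA letters. Of 35 such genes 32 were higher in the triple mutants and none was lower, with a median log2 difference of 1.33. That count was 25 to 31 with a mouse left out, with 25 without FADD IEC-KO replicate 4, and 28 in a fit of only the 2 groups. The promoters of Trim30a, Ifit1 and Isg15 are shown because these interferon-induced genes stand well apart between the groups and carry that element in different numbers. Each is the RefSeq window of 300 bases (build GRCm38.p6), 250 bases before to 50 after the annotated start, read 5′ to 3′ on the gene's strand, with matches in capitals to GAAA, any 2 bases and GAAA again on either strand (read as TTTC, any 2 bases and TTTC for the other strand).
Trim30a, chr7:104446076-104446375, minus strand: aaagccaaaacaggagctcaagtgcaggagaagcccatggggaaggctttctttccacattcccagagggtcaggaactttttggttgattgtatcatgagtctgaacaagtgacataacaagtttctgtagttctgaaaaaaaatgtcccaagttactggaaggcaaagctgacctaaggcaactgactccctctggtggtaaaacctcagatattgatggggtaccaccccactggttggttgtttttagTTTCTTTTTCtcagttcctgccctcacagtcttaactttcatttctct
Ifit1, chr19:34640639-34640938, plus strand: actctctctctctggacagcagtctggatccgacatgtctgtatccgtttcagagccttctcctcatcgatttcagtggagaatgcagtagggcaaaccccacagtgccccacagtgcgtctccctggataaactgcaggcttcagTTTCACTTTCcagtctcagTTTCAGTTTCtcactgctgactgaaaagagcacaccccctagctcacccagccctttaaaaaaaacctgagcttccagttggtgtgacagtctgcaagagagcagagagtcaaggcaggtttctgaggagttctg
Isg15, chr4:156200769-156201068, minus strand: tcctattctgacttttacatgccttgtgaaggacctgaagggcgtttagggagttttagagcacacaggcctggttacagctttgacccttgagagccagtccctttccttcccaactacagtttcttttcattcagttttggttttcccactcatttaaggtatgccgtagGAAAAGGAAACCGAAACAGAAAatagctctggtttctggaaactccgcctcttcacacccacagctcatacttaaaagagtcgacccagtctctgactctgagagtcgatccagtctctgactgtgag

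With the annotated start counted as 0, Trim30a had 1 match at 2, Ifit1 had matches at -104 and -85, and Isg15 had 3 matches at -78, -72 and -66 that overlap each other. Of the called genes of the interferon list, 25 had a window in the table, and 16 of them (64%) held a match. Herc6, a ligase for the ISG15 protein in mice, had no match in its window. Among 15683 measured genes with a window 3.94% held one, as did 8.93% of all genes called higher, 3.42% of those called lower and 0 of 9 alpha-defensins. A match is a description of the letters only. Trim30a was picked by the rule for named genes, and the other sequences after their values were seen.

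Trim30a, an interferon-inducible member of the tripartite motif family, was 8.28, 7.97, 8.62, 8.22 and 7.97 in the triple mutants and 6.71, 4.69, 5.20, 4.87 and 5.55 in FADD IEC-KO. The groups were apart by more than 1 log2 unit at their nearest mice, and the rise of 2.81 ± 0.35 was 6.99-fold (limma adjusted p = 1.21e-06). Rtp4, an interferon-induced chaperone of receptor transport, was 7.21, 6.91, 7.71, 7.10 and 7.20 against 6.06, 4.60, 4.25, 4.45 and 5.11, a rise of 2.33 ± 0.23 (adjusted p = 8.48e-09). Ifit1, which binds foreign RNA ends, was 9.11, 8.90, 9.43, 9.10 and 9.01 against 8.20, 6.96, 6.87, 5.68 and 7.21, a rise of 2.13 ± 0.33 (adjusted p = 3.27e-05). In all of these genes the triple mutants were close together, and replicate 1 was the highest of the FADD IEC-KO mice.

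Oas2, an oligoadenylate synthetase that activates the nuclease RNase L, was 7.45, 7.05, 7.88, 7.29 and 7.43 in the triple mutants and 5.84, 5.16, 5.11, 5.12 and 5.42 in FADD IEC-KO. It rose by 2.09 ± 0.20 (adjusted p = 4.2e-09). The ubiquitin-like modifier gene Isg15 rose by 2.04 ± 0.28 (adjusted p = 7.22e-06), and Herc6 by 2.06 ± 0.32 (adjusted p = 4.85e-05). In a separate list of 22 interferons, receptors and signalling genes 1 was higher and none lower, beside 3.78% of all genes called higher. Its median was 0.09, with 7 genes below 0. The regulator genes Irf7 and Stat2 were called but are not in that list, so its count depends on how the genes were divided. Irf7 rose by 1.61 ± 0.17. Irf9, the called gene of that list, was 8.07, 7.90, 7.89, 7.91 and 7.77 against 7.62, 7.14, 7.13, 6.83 and 7.27. This is a smaller rise of 0.71 ± 0.11 with no overlap (adjusted p = 3.07e-05). The antiviral GTPase gene Mx1 (0.39, adjusted p = 0.252) and Slfn8 (0.50, adjusted p = 0.182) did not pass, and neither did the gene of interferon gamma, Ifng (0.30, adjusted p = 0.442).

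Genes of antigen presentation were higher in part. Of 16 genes of the MHC class I pathway 10 were called higher, with a median of 0.49. Tap2, a subunit of the peptide transporter, was 8.64, 8.67, 8.68, 8.62 and 8.64 in the triple mutants and 8.25, 7.97, 8.09, 7.77 and 7.99 in FADD IEC-KO, a rise of 0.64 ± 0.13 (adjusted p = 0.00134). H2-T23, a nonclassical class I gene, rose by 0.74 ± 0.14 (adjusted p = 0.000421). The immunoproteasome gene Psmb8 was 9.85, 9.60, 9.78, 9.58 and 9.92 against 9.40, 8.63, 9.24, 7.27 and 9.11, where FADD IEC-KO replicate 4 was far the lowest, and the rise was 1.02 ± 0.31 (adjusted p = 0.0398). The class I count was unsteady: it was 3 without triple mutant replicate 3 or without FADD IEC-KO replicate 4, 5 without triple mutant replicate 1 or replicate 2, and 6 when FADD IEC-KO replicate 2 was left out. Leaving out FADD IEC-KO replicate 1 raised it to 13. After quantile normalization it was 6, and in a fit of only the 2 groups 3. Of 8 class II genes 2 were higher: H2-Eb1, a class II beta chain (1.09 ± 0.32, adjusted p = 0.0285), and Ctss, the protease that trims the invariant chain (0.38, adjusted p = 0.0293). That count fell to 0 without triple mutant replicate 1, 2 or 3 or FADD IEC-KO replicate 4. Of 12 guanylate-binding proteins and immunity-related GTPases 2 were higher, Gbp3 (0.90 ± 0.21, adjusted p = 0.00595) and Gbp9 (0.79, adjusted p = 0.049). Of the single calls, those of Psmb8 and Gbp9 ended when any of 7 mice was left out (adjusted p up to 0.164 and 0.176), that of Ctss with any of 6 (up to 0.124) and that of H2-Eb1 with any of 5 (up to 0.129); those of Tap2, H2-T23 and Gbp3 held.

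Genes of T lymphocytes and intraepithelial lymphocytes were higher in 8 of 19 cases, with a median of 0.83. Ccl5, a chemokine made by such cells, was 9.18, 9.07, 9.67, 9.34 and 9.51 in the triple mutants and 8.64, 7.52, 7.17, 6.62 and 8.46 in FADD IEC-KO, a rise of 1.67 ± 0.35 (adjusted p = 0.00208). The granzyme genes Gzma and Gzmb encode killer cell proteases. Gzma was 10.14, 10.51, 10.59, 10.13 and 9.96 against 10.20, 8.82, 8.68, 6.62 and 8.88 (1.63 ± 0.48, adjusted p = 0.0344). In Gzma the groups overlapped through FADD IEC-KO replicate 1, and replicate 4 was the lowest. Gzmb rose by 1.51 ± 0.46 (adjusted p = 0.0364), with an adjusted p of 0.129 without FADD IEC-KO replicate 4 and of 0.00641 without replicate 1. Cd3g, a chain of the T cell receptor complex (1.43 ± 0.35, adjusted p = 0.00924), and Itgae, the integrin that holds these lymphocytes in the epithelium (0.996 ± 0.22, adjusted p = 0.00319), rose, while Cd4 did not pass (0.43, adjusted p = 0.0892). The call of Gzma ended when any of 8 mice was left out (adjusted p up to 0.133) and that of Gzmb with any of 9, while Ccl5, Cd3g and Itgae kept theirs. In a fit of only the 2 groups 5 lymphocyte genes were called. The lymphocyte count was 13 without FADD IEC-KO replicate 1 and 5 without FADD IEC-KO replicate 2, 3 or 4 or triple mutant replicate 2, 3 or 4.

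**Figure D3:**
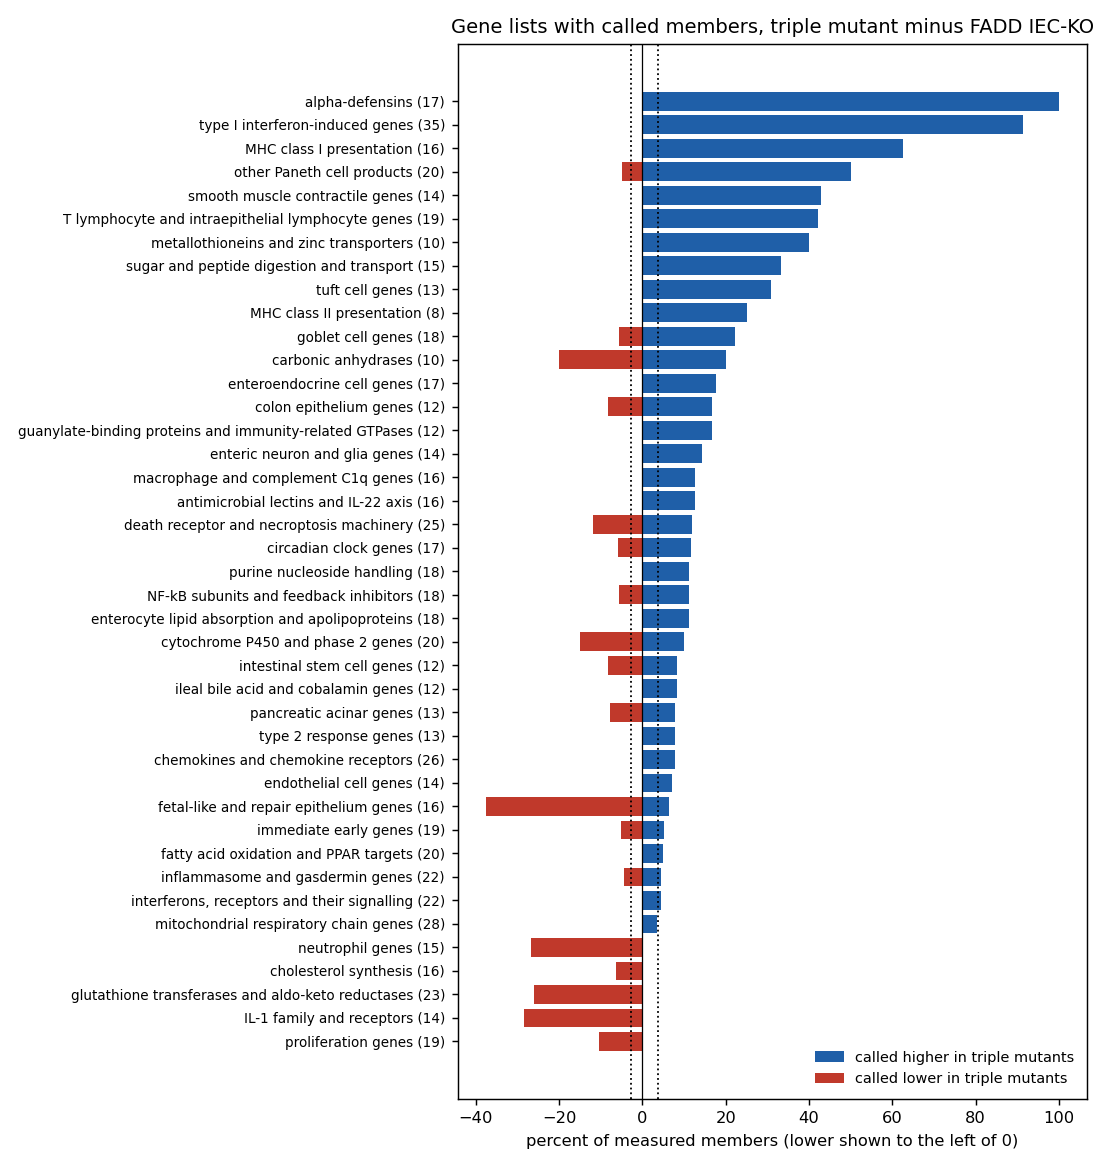
Share of the measured members of each gene list that were called higher or lower in the triple mutants (x axis, percent of members); the dotted lines mark the shares over all genes, 3.78% higher and 2.72% lower. The alpha-defensins and the interferon-induced genes have the largest shares called higher, and the fetal-like, glutathione, IL-1 and neutrophil lists have members called lower.

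Absorptive genes rose in part. Of 15 genes of sugar and peptide digestion and transport 5 were higher, with a median of 0.44. Slc2a2, a glucose and fructose carrier, was 7.52, 7.77, 8.68, 7.24 and 7.07 in the triple mutants and 5.60, 5.12, 4.82, 6.53 and 4.35 in FADD IEC-KO, with no overlap and a rise of 2.37 ± 0.57 (adjusted p = 0.00749). Slc2a5, the fructose carrier of the brush border, was 9.20, 9.26, 9.58, 8.77 and 9.05 against 8.58, 7.80, 7.37, 8.27 and 6.50, a rise of 1.47 ± 0.44 (adjusted p = 0.0341). Khk, which phosphorylates fructose (0.63, adjusted p = 0.0219), and Slc5a1, the sodium-coupled glucose carrier (0.48 ± 0.12, adjusted p = 0.0107), rose, and the disaccharidase gene Sis did not pass (0.42, adjusted p = 0.252). Leaving out 1 mouse ended the call of Slc2a5 in 6 of 10 cases (adjusted p up to 0.127), of Khk in 3 (up to 0.102) and of Slc5a1 in 1, without FADD IEC-KO replicate 5 (0.0514); Slc2a2 kept its call. The sugar count was 3 without triple mutant replicate 1, 2 or 3 or FADD IEC-KO replicate 3, 1 without FADD IEC-KO replicate 5, and 3 in a fit of only the 2 groups.

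Of 18 lipid absorption genes 2 were higher: Dgat2, which completes triglyceride synthesis (0.47 ± 0.10, adjusted p = 0.00239), and Mttp, which loads lipid onto apolipoprotein B (0.43, adjusted p = 0.0112, but 0.0572 without FADD IEC-KO replicate 5). The lipid count was 4 without FADD IEC-KO replicate 4 and 1 without FADD IEC-KO replicate 5. Of 10 metallothioneins and zinc transporters 4 were higher, a count that held in every leave-one-out fit. The zinc exporter gene Slc30a2 was 7.23, 7.71, 7.39, 7.23 and 7.46 against 6.34, 6.18, 6.03, 6.39 and 5.88, with no overlap (1.24 ± 0.18, adjusted p = 1.96e-05). Another exporter gene, Slc30a1 (0.55, adjusted p = 0.00944), and the importer genes Slc39a5 (0.68 ± 0.12, adjusted p = 0.000265) and Slc39a4 (0.42, adjusted p = 0.00563) were the others.

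Smooth muscle contractile genes, which mark the muscle layer of the ileum piece, moved with the same groups. Of 14 such genes 6 were higher, with a median of 0.57, among them the intermediate filament genes Synm (0.82, adjusted p = 0.0114) and Des (0.77, adjusted p = 0.0495, and up to 0.182 with a mouse left out). Their mean level relative to the floxed controls was 0.38, 0.18, 0.08, -0.06 and 0.04 in the triple mutants and -1.11, -0.76, -0.22, 0.23 and -0.36 in FADD IEC-KO, so that FADD IEC-KO replicate 1 was the lowest and replicate 4 lay among the triple mutants. The count was 12 without FADD IEC-KO replicate 4, 1 without FADD IEC-KO replicate 1 or replicate 2, 3 without FADD IEC-KO replicate 5, 2 without triple mutant replicate 1 and 3 without triple mutant replicate 2. In a fit of only the 2 groups none of these genes was called by limma, with 10 higher at an unadjusted p under 0.05, and after quantile normalization 3 were. The part of the muscle share of the tissue in the epithelial results was not tested. Of 18 fibroblast genes and 16 B cell genes none was called by limma, with 4 and 3 at an unadjusted p under 0.05. Slc10a2, the ileal bile acid carrier, was high in both groups, from 11.54 to 11.73 in the triple mutants and from 11.50 to 11.81 in FADD IEC-KO (0.01, adjusted p = 0.972). Of 12 ileal bile acid and cobalamin genes 1 was called higher. Of 12 colon genes 2 were called higher and 1, Car1, lower. Both counts of rises were 0 to 2 with a mouse left out. Among 10 duodenum and jejunum genes none was called by limma.

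Smaller numbers of secretory and sensory cell genes were higher. Of 18 goblet cell genes 4 were higher and 1 lower. Clca1, a protein of goblet cell mucus, was 12.26, 12.30, 12.31, 12.25 and 12.29 against 12.09, 11.81, 11.61, 11.95 and 11.41, so that the triple mutants were nearly alike and above every FADD IEC-KO mouse (0.51 ± 0.12, adjusted p = 0.00851). Ccl6, a chemokine on the same list, rose by 1.04 ± 0.17 (adjusted p = 9.73e-05), and Atoh1, the transcription factor of the secretory lineage, by 0.36 (adjusted p = 0.0361). Of 17 enteroendocrine genes 3 were higher, led by the hormone genes Nts (0.996, adjusted p = 0.0232) and Pyy (0.85 ± 0.12, adjusted p = 8.18e-06). Of 13 tuft cell genes 4 were higher, among them Trpm5, the taste transduction channel (0.82 ± 0.19, adjusted p = 0.00466), and Dclk1 (0.51 ± 0.13, adjusted p = 0.0133). Trpm5 is also counted below among the neighbours of Fadd. The call of Atoh1 ended when any of 7 mice was left out (adjusted p up to 0.146), that of Nts with any of 4 (up to 0.1) and that of Dclk1 without triple mutant replicate 2 (0.0595). The tuft count was 2 without triple mutant replicate 2 or FADD IEC-KO replicate 3. The enteroendocrine count was 1 without triple mutant replicate 1 or FADD IEC-KO replicate 2, and 5 without FADD IEC-KO replicate 4. With the title series as a covariate 2 tuft cell genes and 1 enteroendocrine gene were called higher, and Trpm5 (adjusted p = 0.0546), Nts (adjusted p = 0.0551) and Atoh1 (adjusted p = 0.183) were not called. In a fit of only the 2 groups 2 goblet cell genes were called higher.

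Falls were found in some members of lists of epithelial repair, IL-1 family and neutrophil genes, detoxification and proliferation. Proliferation genes were called lower in 2 of 19 cases, and all 19 had values below 0, with a median of -0.33. That count was 0 to 6 with a mouse left out, 7 after quantile normalization and 8 with the title series as a covariate. Of 16 genes of a fetal-like or repairing epithelium 6 were lower and 1, Clu, was higher (0.59, adjusted p = 0.0463), with a median of -0.35. Anxa1, an annexin induced in injured epithelium, was 7.15, 7.16, 7.13, 7.51 and 7.28 in the triple mutants and 8.64, 8.84, 9.29, 7.98 and 9.79 in FADD IEC-KO. The groups did not overlap, and Anxa1 fell by 1.66 ± 0.33 (adjusted p = 0.00124). Il1rn, the antagonist of the IL-1 receptor, was 6.28, 6.85, 6.60, 6.15 and 7.04 against 7.90, 8.57, 8.71, 6.91 and 9.31, and fell by 1.70 ± 0.40 (adjusted p = 0.00663) with overlap through FADD IEC-KO replicate 4. Anxa3 (-0.97 ± 0.19, adjusted p = 0.000809) and Nrg1, a growth factor (-0.95 ± 0.21, adjusted p = 0.00367), fell too. Clu was no longer called when any of 7 mice was left out (adjusted p up to 0.178), while the 4 falls named here held.

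Of 14 IL-1 family genes and receptors 4 were lower, Il1rn and 3 others: Il1f8 (-1.05, adjusted p = 0.023), Il1r1 (-0.61) and Il1r2 (-0.41). Of 15 neutrophil genes 4 were lower. S100a8, a subunit of calprotectin, was 3.06, 3.62, 3.57, 2.68 and 3.30 in the triple mutants and 4.43, 4.23, 5.69, 3.06 and 4.59 in FADD IEC-KO (-1.15 ± 0.28, adjusted p = 0.00692), at intensities near the low end of the arrays. Il1r2 lost its call with any of the 10 mice left out (adjusted p up to 0.113), Il1r1 with any of 6 (up to 0.0983) and Il1f8 with any of 4 (up to 0.103). The IL-1 count was between 1 and 3 and the neutrophil count 2 or 3 when any mouse was left out; in a fit of only the 2 groups they were 2 and 1. S100a6, a calcium-binding protein of the same family as S100a8, fell by 1.11 ± 0.19 with no overlap (adjusted p = 0.000229).

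Of 23 glutathione transferases and aldo-keto reductases 6 were lower and none was higher, with a median of -0.03. Gsta2, one of the glutathione transferases, was 8.54, 8.57, 9.17, 8.86 and 8.46 against 9.47, 9.72, 9.76, 10.06 and 9.92. It fell by 1.07 ± 0.19 with no overlap (adjusted p = 0.000231), and the related genes Gsta3 (-0.77 ± 0.14, adjusted p = 0.000485) and Gsta4 (-0.79, adjusted p = 0.0218) fell as well. The call of Gsta4 ended when any of 4 mice was left out (adjusted p up to 0.0909). Near-identical members of this family may share signal.

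Among single genes, the carbonic anhydrase gene Car1, better known from the colon, was 6.03, 5.31, 4.72, 5.41 and 5.39 in the triple mutants and 10.23, 10.61, 5.53, 8.26 and 11.52 in FADD IEC-KO. FADD IEC-KO replicate 3 lay among the triple mutants and the other 4 mice far above them (-3.86 ± 0.70, adjusted p = 0.000385). Floxed mice had 4.59 to 5.99. Car9, a carbonic anhydrase induced by low oxygen, fell by 0.87 ± 0.13 (adjusted p = 4.25e-05), while Car2 (0.63, adjusted p = 0.00962) and Car4 (0.60, adjusted p = 0.0153) rose. Car2 was not called without triple mutant replicate 1 (adjusted p = 0.0591), nor Car4 without FADD IEC-KO replicate 2 (adjusted p = 0.0781). Myot, a protein of striated muscle fibres, was 4.77, 4.59, 4.78, 4.91 and 5.12 against 6.13, 7.41, 7.72, 5.42 and 6.59, and fell by 1.82 ± 0.36 (adjusted p = 0.000902). The cytochrome P450 gene Cyp2c65 fell by 1.57 ± 0.27 (adjusted p = 0.000194), and Mboat1, an acyltransferase of membrane phospholipids, by 1.07 ± 0.21.

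In the death receptor and necroptosis list of 25 genes 3 were higher and 3 lower. Beside Casp8, Mlkl and Zbp1 these were Tnfsf10, the ligand TRAIL (0.89, adjusted p = 0.0304), its receptor gene Tnfrsf10b (-0.67, adjusted p = 0.00649) and Bcl2l1, a gene that keeps mitochondria intact (0.53 ± 0.10, adjusted p = 0.000799). Tnfsf10 lost its call when any of 6 mice was left out (adjusted p up to 0.0934). Tnf did not pass (0.04, adjusted p = 0.953), and of 20 cytokine genes none was called by limma, with 2 higher and 2 lower at an unadjusted p under 0.05. Of 18 NF-kB genes 2 were higher, both of the noncanonical branch, and 1 lower, the feedback inhibitor gene Tnip3 (-0.35, adjusted p = 0.0483). Nfkb2, the precursor subunit, was 7.97, 8.39, 8.19, 7.77 and 8.39 in the triple mutants and 7.502, 7.36, 7.52, 7.65 and 7.499 in FADD IEC-KO, with no overlap (0.64 ± 0.09, adjusted p = 1.95e-05). Its partner Relb rose by 0.60 ± 0.11 (adjusted p = 0.000757), and both rises held in every leave-one-out fit, while Tnip3 was lost in 8 of 10. Aim2, a sensor of cytosolic DNA, was 5.999, 6.17, 6.66, 6.42 and 6.71 against 7.30, 7.31, 7.48, 6.88 and 7.66, and fell by 0.94 ± 0.16 (adjusted p = 0.000109).

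The joint change was divided into a step that removes MLKL from FADD IEC-KO mice (FADD IEC-KO Mlkl -/- minus FADD IEC-KO) and a step that removes caspase-8 in addition (triple mutant minus FADD IEC-KO Mlkl -/-). Both share arrays with the joint comparison and with each other, so their values are set side by side only. In the MLKL step 313 genes were called (1.61%; 167 higher, 0.857%, and 146 lower, 0.749%). In the CASP8 step 1533 were called (7.86%; 1074 higher, 5.51%, and 459 lower, 2.35%). The CASP8 step coincides with the title number series, since every triple mutant is numbered 200 or over and every FADD IEC-KO Mlkl -/- mouse under it; with the series as a covariate, which the other groups allow, 667 genes were called.

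**Figure D4:**
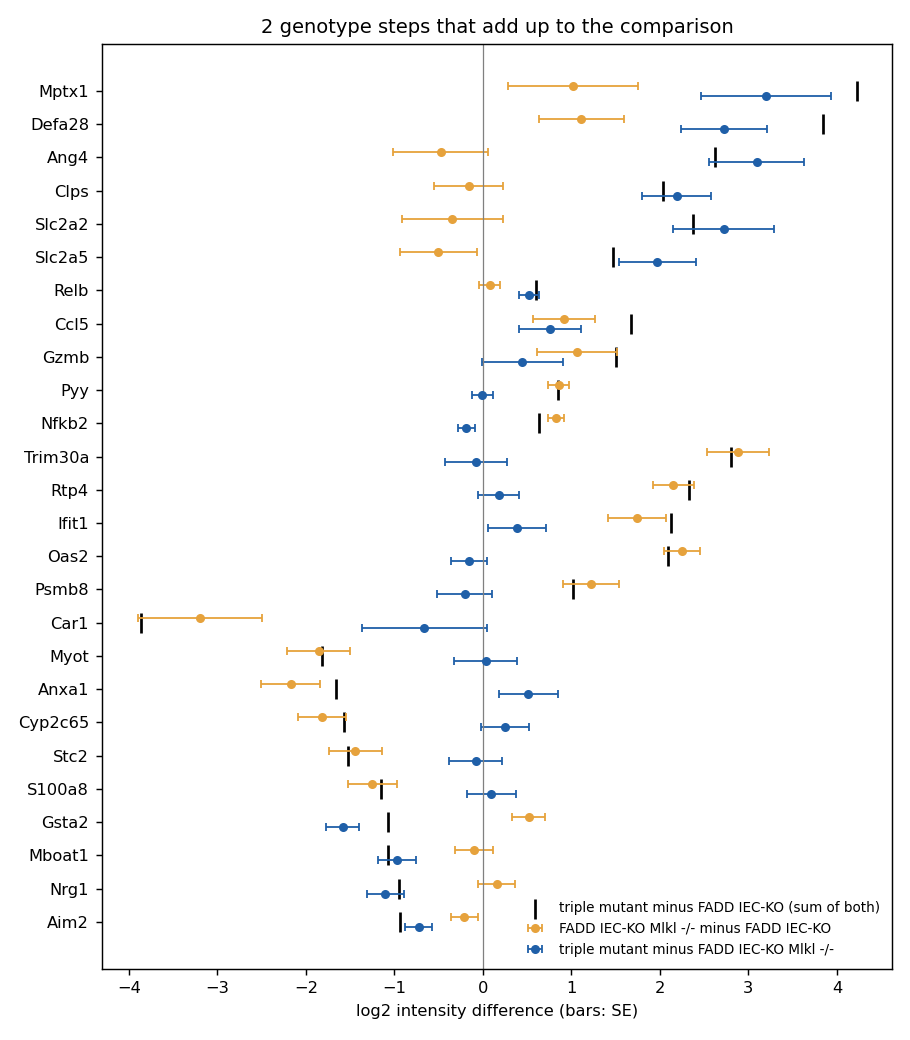
Log2 difference (x axis) of 26 genes in the MLKL step and in the CASP8 step, as points with bars of 1 standard error of the limma fit; the tick marks the joint difference, triple mutant minus FADD IEC-KO. Defa28, Mptx1, Ang4, Clps and the sugar carriers Slc2a2 and Slc2a5 have their larger values in the CASP8 step, and Trim30a, Rtp4, Oas2 and Anxa1 in the MLKL step.

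Of the 35 interferon-induced genes 30 were higher in the MLKL step, with a median of 1.36, and in the CASP8 step 1 was higher and 3 were lower, with a median of -0.04. Trim30a differed by 2.88 in the MLKL step (adjusted p = 6.21e-07) and by -0.07 in the CASP8 step (adjusted p = 0.942); its levels in FADD IEC-KO Mlkl -/- were 7.83, 9.02, 8.18, 7.67 and 8.73, which overlap the triple mutants. Oas2 differed by 2.25 (adjusted p = 8.27e-10) and -0.15. Anxa1 fell by 2.17 in the MLKL step (adjusted p = 4e-05) and differed by 0.51 in the CASP8 step. Car1 differed by -3.20 in the MLKL step (adjusted p = 0.00668), and Pyy by 0.86 (adjusted p = 6.81e-06).

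Of the 17 alpha-defensins none was called by limma in the MLKL step (median 0.79, with 1 higher at an unadjusted p under 0.05) and 12 were higher in the CASP8 step (median 1.56). With the title series as a covariate 8 were called higher in the CASP8 step. Defa28 in FADD IEC-KO Mlkl -/- was 6.53, 5.39, 4.60, 6.31 and 4.57, below all triple mutants; the MLKL step was 1.11 (adjusted p = 0.356) and the CASP8 step 2.73 (adjusted p = 0.000413). Mptx1 gave 1.02 (adjusted p = 0.673) and 3.20 (adjusted p = 0.00473), and Ang4 gave -0.48 (adjusted p = 0.83) and 3.09 (adjusted p = 0.000329). Of the other Paneth cell products none was called in the MLKL step (3 lower at an unadjusted p under 0.05 in limma) and 11 of 20 were higher in the CASP8 step, or 6 with the title series as a covariate. A gene that missed the threshold in one step is not shown to differ between the steps.

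Of the sugar and peptide genes 1 was lower in the MLKL step and 10 of 15 were higher in the CASP8 step, with a median of 0.65. Of the lipid absorption genes 4 were lower in the MLKL step and 9 of 18 higher in the CASP8 step. Slc2a2 gave -0.35 in the MLKL step and 2.72 in the CASP8 step (adjusted p = 0.00226). Smooth muscle genes moved with the CASP8 step as well, with 12 of 14 higher and a median of 0.79; their mean level relative to floxed controls ran from -0.90 to -0.51 in FADD IEC-KO Mlkl -/- and from -0.06 to 0.38 in the triple mutants. The part of this in the other rises of that step was not tested. Gsta2 gave 0.52 (adjusted p = 0.214) and -1.58 (adjusted p = 3.83e-07), and its levels in FADD IEC-KO Mlkl -/- ran from 9.97 to 10.53. Falls of the CASP8 step by the rule for named genes were Casp8 and Gsta2, the interferon-induced gene Phf11b (-1.26, adjusted p = 0.00688), the transporter gene Abca13 (-1.26, adjusted p = 0.000342) and Hsd17b6, a steroid and retinol dehydrogenase (-1.20, adjusted p = 0.0104). With the title series as a covariate Phf11b (adjusted p = 0.0677) and Hsd17b6 (adjusted p = 0.0692) were no longer called in this step, and Abca13 was (adjusted p = 0.00677).

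Against the floxed controls the triple mutants had 720 genes called (3.69%; 2.15% higher and 1.54% lower) and FADD IEC-KO against Fadd fl/fl 727 (3.73%; 1.81% higher and 1.92% lower). Of the 17 alpha-defensins none was called by limma between triple mutants and floxed mice, and 0 had an unadjusted p under 0.05, with a median of -0.06, and all 17 were lower in FADD IEC-KO. As a mean per mouse relative to the floxed controls, alpha-defensins were 0.06, -0.11, -0.04, 0.10 and -0.20 in the triple mutants, -1.43, -3.29, -2.20, -2.27 and -3.71 in FADD IEC-KO, and -0.91, -1.83, -2.55, -1.56 and -2.05 in FADD IEC-KO Mlkl -/-. Every triple mutant lay above every mouse of the other 2 groups. Defa28 differed from floxed mice by 0.11 in the triple mutants (adjusted p = 0.925) and Mptx1 by 0.32 (adjusted p = 0.846).

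The interferon-induced genes did not lie at the floxed level. Of 35 genes 26 were higher in the triple mutants than in floxed mice, with a median of 1.08, while 2 were lower in FADD IEC-KO. The mean per mouse was 1.03, 0.84, 1.21, 0.94 and 0.98 in the triple mutants, 0.31, -0.45, -0.45, -0.76 and -0.26 in FADD IEC-KO, and 0.80, 1.51, 1.05, 0.77 and 1.27 in FADD IEC-KO Mlkl -/-. Both Mlkl -/- groups thus lay above the floxed mean and FADD IEC-KO, with replicate 1 as the exception, below it. Trim30a was higher than in floxed mice by 1.98 (adjusted p = 5.67e-05) in the triple mutants. The sugar and peptide genes had means of 0.37, 0.34, 0.41, 0.32 and 0.11 in the triple mutants and -0.00, -0.23, -0.47, 0.02 and -0.85 in FADD IEC-KO.

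**Figure D5:**
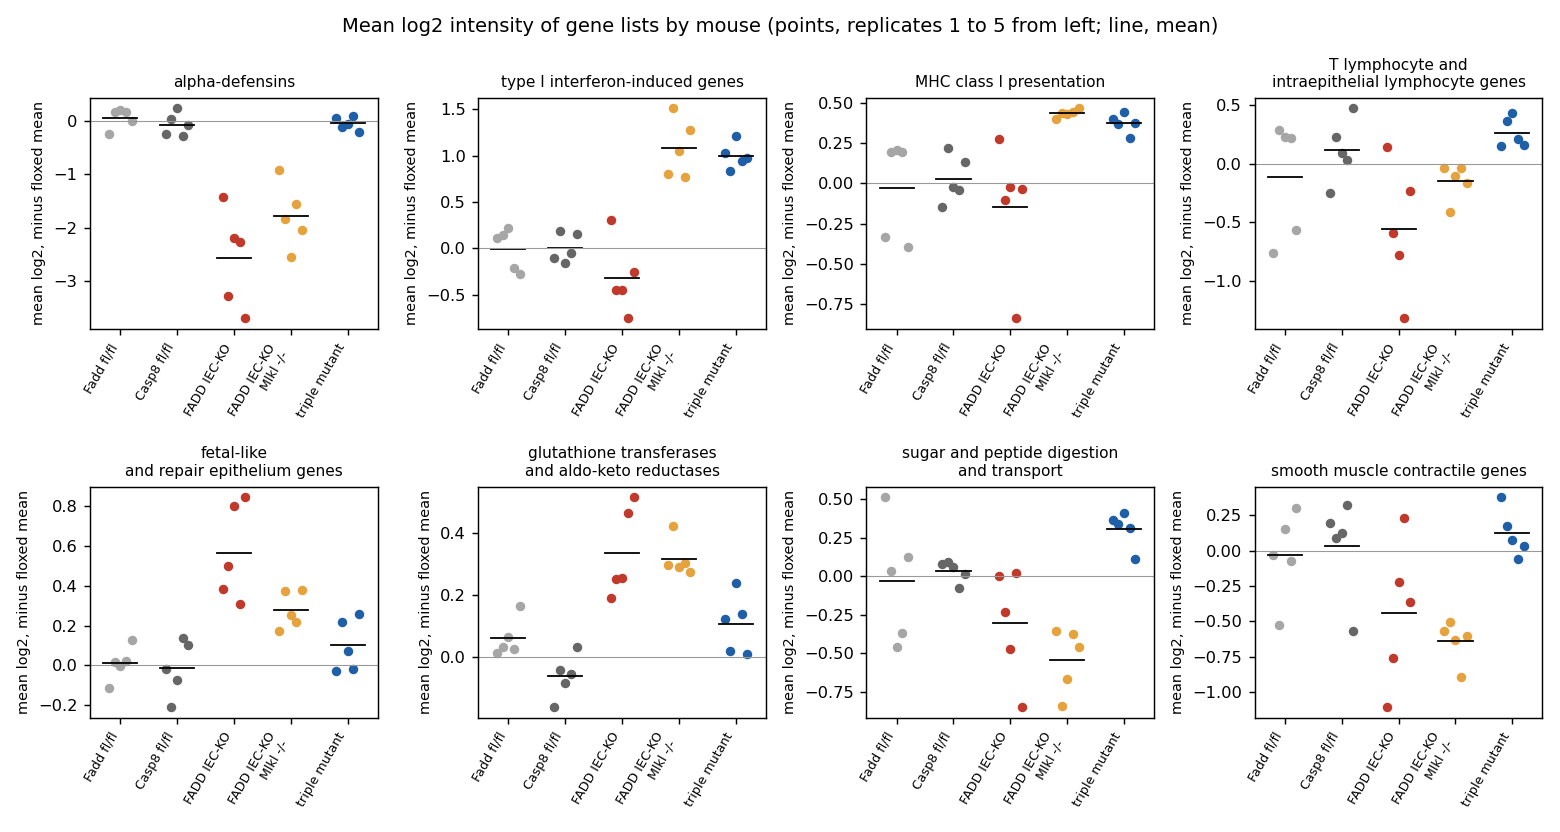
Mean log2 level of the members of 8 gene lists in each mouse, relative to the mean of the floxed controls (y axis, log2), by group; points are single mice. For alpha-defensins the triple mutants lie at the floxed level from -0.20 to 0.10 and FADD IEC-KO from -3.71 to -1.43; for interferon-induced genes the triple mutants lie from 0.84 to 1.21.

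The joint change was set against the change that loss of MLKL brings to mice without epithelial caspase-8 (CASP8 IEC-KO Mlkl -/- minus CASP8 IEC-KO), which shares no array with it. That comparison called 541 genes (2.78%; 309 higher, 1.59%, and 232 lower, 1.19%). All 17 alpha-defensins were higher there, with a median of 2.46, and 34 of 35 interferon-induced genes, with a median of 1.68, while of the sugar and peptide genes none was called by limma (median -0.14, with 4 lower at an unadjusted p under 0.05). Across genes the changes of the 2 comparisons had a Pearson r of 0.50 and a Spearman rho of 0.25; genes are not independent replicates. The difference between the changes was tested itself, and 43 genes passed (0.221%; 30 higher, 0.154%, and 13 lower, 0.0667%), with 2114 at an unadjusted p under 0.05.

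Casp8 (-1.25 ± 0.19, adjusted p = 0.000673) and Mlkl (-1.45 ± 0.28, adjusted p = 0.00893) were among them; the joint comparison sets deleted against undeleted Casp8, while both groups of the other comparison lack it. Slc2a5 had the largest positive difference, 2.88 ± 0.62 (adjusted p = 0.0249): it rose in the joint comparison, while it was 9.003, 6.66, 8.15, 8.43 and 8.57 in CASP8 IEC-KO and 6.98, 6.75, 6.80, 6.91 and 6.29 in CASP8 IEC-KO Mlkl -/- (-1.42, adjusted p = 0.0706). The other positive ones named by rule were the clock repressor gene Nr1d1 (2.48, adjusted p = 0.0109), Hspb7, a small heat shock protein of muscle (1.70, adjusted p = 0.0384), Lamb3, a laminin chain (1.46, adjusted p = 0.000673), and P2ry2, a nucleotide receptor (1.21, adjusted p = 0.0445). Negative ones were Mx2, an interferon-induced GTPase (-1.50, adjusted p = 0.0479), Sass6, a centriole assembly protein (-1.13, adjusted p = 0.000673), and Rad51b, a DNA repair protein (-1.11, adjusted p = 0.0487). The clock index, a contrast of clock genes that follows the time of day, ran from 1.46 to 2.66 in CASP8 IEC-KO Mlkl -/-. It ran from -1.95 to -0.34 in the triple mutants and was -1.55, 0.25, 0.20, -2.05 and 1.25 in FADD IEC-KO. With the index as a covariate 2 genes passed the test of the difference. The joint comparison then called 1073 genes, beside 1267 without it, and its rise of Slc2a5 was 0.99 (adjusted p = 0.00264), beside 1.47. Of 17 circadian clock genes 2 were called higher and 1 lower in the joint comparison.

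Genes that lie next to the deleted loci were examined because such stretches can stay linked to a mutated allele. By the titles both compared groups carry the deletion of Fadd, so this reason covers Mlkl and Casp8 only. The neighbours of Fadd are given beside them. Of 40 neighbours of Mlkl 3 were called (7.5%), of 40 neighbours of Casp8 4 (10%) and of 28 neighbours of Fadd 3 (10.7%), beside 6.5% of all genes. Those near Mlkl were Calb2, a calcium buffer (0.81 ± 0.22, adjusted p = 0.0182), Bcar1, an adaptor of focal adhesions (0.35 ± 0.10, adjusted p = 0.0223), and Adat1, a deaminase of transfer RNA (-0.43 ± 0.10, adjusted p = 0.0052). Those near Casp8 were Carf (-0.50 ± 0.11, adjusted p = 0.00336), Wdr12, Orc2 and Bzw1, all lower. Those near Fadd were Trpm5, given above as a tuft cell gene (0.82 ± 0.19, adjusted p = 0.00466), Phlda2 (-0.73 ± 0.22, adjusted p = 0.0366) and Cttn. The calls of Calb2, Bcar1, Wdr12, Orc2, Bzw1 and Phlda2 each ended with some mouse left out (adjusted p up to 0.147). Those of Adat1, Carf, Cttn and Trpm5 did not. In the MLKL step Calb2 gave 0.20 (adjusted p = 0.816), Bcar1 -0.13 (adjusted p = 0.673) and Adat1 -0.13 (adjusted p = 0.704). In CASP8 IEC-KO Mlkl -/- minus CASP8 IEC-KO they gave 0.17, -0.21 and -0.21, with none called (adjusted p from 0.345 to 0.843). In the CASP8 step Bcar1 gave 0.48 (adjusted p = 0.0015), Adat1 -0.30 (adjusted p = 0.0494) and Calb2 0.60 (adjusted p = 0.0778). Near Fadd, Cttn, the actin-binding protein cortactin, lay 2 genes away and rose by 0.44 ± 0.07 with no overlap (adjusted p = 3.77e-05), and its CASP8 step was 0.49 (adjusted p = 1.56e-05). Its difference between the 2 changes was 0.60 ± 0.10 (adjusted p = 0.000837).

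Within the title numbers of 200 and over the 5 triple mutants meet FADD IEC-KO replicate 5 alone, and 260 genes were called. This lone FADD IEC-KO mouse was taken to vary like the other groups. Of 17 alpha-defensins 12 were higher there (median 3.58) and of 35 interferon-induced genes 11 (median 1.22), while none of the MHC class I, lymphocyte or smooth muscle genes was called by limma, with 5, 2 and 4 higher at an unadjusted p under 0.05. Defa28 differed by 5.06 in this setting, while Ang4 differed by 0.94, beside 2.62 in the main comparison. The other Paneth cell products had a median of 0.39. As given above, replicate 5 had the lowest alpha-defensin mean and the lowest Defa28 level of the FADD IEC-KO mice. The larger alpha-defensin values of this setting are therefore measured from the lowest mouse. With the title series as a covariate over all groups, 25 of the 128 calls of named genes ended, some of them in genes not printed here. Among the printed genes, the calls that ended beside those given above were Gbp9, H2-Eb1, Clu, Tnip3, Tnfsf10, Il1r2, Calb2, Bcar1 and Phlda2 (adjusted p up to 0.251).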

How the data were processed

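RNA from the ileum of 45 mice was measured on 1 array each, 5 mice in each of 9 groups. Per the labels' protocols, tissue was frozen on dry ice, total RNA was purified with a Nucleospin kit, and targets were made with a WT PLUS kit. The deposited values are log2 intensities normalized by the authors; the submitters' processing notes name Affymetrix Expression Console and Transcriptome Analysis Console. How probes were summarized is not given in the sources used here. Array medians lay between 6.36 and 6.44. The number of arrays limits the precision.

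Of 22142 probes 19527 had 1 gene symbol and 2615 none. Where a gene had several probes (33 genes) the brightest on average stood for it, giving 19494 genes; no filter on dim genes was applied. Groups followed the titles. A linear model with a mean for each group used all 45 arrays (limma 3.58.1 in R 4.3.3; 36 residual degrees of freedom), and p-values were adjusted over all genes (Benjamini-Hochberg, calls under 0.05). Nothing in the labels pairs mice. The p-values weigh a difference against the spread between mice within groups, pooled over all 9 groups. The median SD between mice over genes was 0.19 in FADD IEC-KO and 0.16 in the triple mutants. The script was tested on simulated data.

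Genes named are the targeted genes, the 12 largest rises and falls among called genes whose groups do not overlap, up to 4 called members of each list, the 5 largest rises and falls of the CASP8 step and of the difference of changes, and called neighbours of the deleted genes; predicted and sex-linked genes were left out, and not all of those that meet the rule are printed. Bcl2l1, Cd4, Herc6, Ifng, Irf7, Isg15, Itgae, Itln1, Lyz1, Mmp7, Mx1, Pla2g2a, Sis, Slc10a2, Slfn8, Sox9, Tnf and Tnfrsf10b were added after their values were seen. The comparison, members and gene lists (48 described, beside a sex-linked list) were chosen with earlier results of these data known. Alternatives were other scalings, a filter on dim genes, array weights, other spread estimates, a fit of 2 groups, leaving out each mouse, and the title series, a clock index or a sex index as covariates. The sex index used Y-linked genes only. It was 7.77 to 7.87 in triple mutant replicates 2, 4 and 5, and 7.90 and 7.84 in FADD IEC-KO replicates 4 and 5. In the other mice of these groups it was 2.71 to 3.37. With this index as a covariate 1267 genes were called between the groups. Names, neighbours and promoters came from RefSeq tables of GRCm38.p6.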

Additional observations from a re-analysis of the deposited data

Results flagged for a closer look

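Single mice stood far from the other 4 of their group in 11 of 274 groups of 5 examined, by a gap of more than 0.71 of the group's range (Dixon's test); chance gives about 1 in 20. Triple mutant replicate 4 was the highest of its group in 4 Paneth cell, secretory or myeloid genes, Ang4 (log2 intensity 11.03), Clps (9.63), Ccl6 (9.78) and Lyz2 (10.96). FADD IEC-KO replicate 4 was the lowest in H2-Eb1 (7.16) and in Jchain (9.35), an immunoglobulin-joining chain. The others were Ripk3 (8.68) and Kit (8.19), a receptor of mast and pacemaker cells, in triple mutant replicate 5, Dclk1 (7.43) in triple mutant replicate 2, Ccl6 (9.27) in FADD IEC-KO replicate 1 and Jund (9.56), a subunit of the AP-1 factor, in FADD IEC-KO replicate 5.

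The joint change differed from that of CASP8 IEC-KO Mlkl -/- minus CASP8 IEC-KO by the test of the difference itself for the deleted genes Casp8 (-1.25) and Mlkl (-1.45), for Slc2a5 (2.88) and for Cttn (0.60), the gene 2 places from Fadd. These come from the fit without the clock index, in which 43 genes passed. With the clock index as a covariate 2 genes passed. By the titles both groups of the joint change carry the deletion of Fadd, and the cause of the Cttn difference was not tested.

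Of 2615 probes without a gene symbol, which the report does not use, 145 were called between triple mutants and FADD IEC-KO (5.54%), 54 higher and 91 lower.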

How the results depend on the processing

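Of 128 named genes called between triple mutants and FADD IEC-KO, 69 stayed called whichever of the 10 mice was left out and 37 under every alternative run, with none reversed. A fit of only the 2 groups kept 75, the title series as a covariate 103, the clock index 109 and the title numbers of 200 and over 48. Genes called between triple mutants and FADD IEC-KO numbered 1267, 2110 with array weights, 593 with only the 2 groups, 260 within the title numbers of 200 and over, and 810 to 1534 with a mouse left out; they were 810 without triple mutant replicate 1 and 825 without FADD IEC-KO replicate 3. Genes called higher were 1156, 380 and 133 in the same 3 settings and 470 to 810 with a mouse left out; genes called lower were 954, 213 and 127, 828 after quantile normalization, and 306 to 724. The MLKL step gave 497 with array weights, 145 with only the 2 groups and 205 to 350 with a mouse left out. The CASP8 step gave 2839 with array weights, 667 with the title series and 935 to 1576. The difference of changes gave 441 with array weights, 2 with the clock index, 166 with a filter on dim genes, 17 with the title series, 73 with a trended robust spread, 3 within the title numbers of 200 and over, and 23 to 97. Triple mutants against floxed mice gave 1192 with array weights, 475 with the title series, 174 within the title numbers of 200 and over, and 368 to 552. FADD IEC-KO against Fadd fl/fl gave 1102 with the clock index, 1091 with a filter on dim genes, 153 with only the 2 groups, 48 within the title numbers of 200 and over, and 309 to 1090. Genes without a call changed sign in some settings: Dcn, a fibroblast proteoglycan, was -0.18 (adjusted p = 0.885) and Phf11b -0.03 (adjusted p = 0.986) within the title numbers of 200 and over, Sass6 was 0.0094 (adjusted p = 0.981) with the clock index and also turned with some single mice left out, and Tnf, Sox9, Pla2g2a and Slc10a2, near 0 as reported, turned as well. Fewer samples and fewer genes tested change the counts by construction; for the array weights, the covariates and the scaling the cause was not tested. The sex index rests on Y-linked genes only. No paired analysis was possible because no title number is shared between groups and replicate numbers follow accession order. Intensities near the low end of the arrays, such as those of S100a8, limit what can be read from them.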
